A study of Mus musculus with 21 samples.

Results

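The genes described here code for proteins of the mitochondrial ribosome. They were taken from the deposited table by symbol, as every row named Mrpl or Mrps followed by a number and at most 1 letter. This gave 77 genes of 24054 rows, 48 named Mrpl and 29 named Mrps. All 77 passed the filter on low counts, and the lowest count of any of them in any library was 276. The libraries were made from left ventricular myocardium of C57BL/6J mice, 1 library per animal. Mice with transverse aortic constriction (TAC, a narrowing of the aorta that overloads the left ventricle) and a PDE5A inhibitor, sildenafil, gave 5 libraries. Mice with TAC and a PDE9A inhibitor, PF-04449613, gave 6, mice with TAC and no inhibitor gave 5, and mice with sham surgery gave 5. Both inhibitors were given for 4 weeks, beginning 1 week after surgery. No source used here states their doses, a vehicle for the other groups or the age of the mice. The comparisons ask what pressure overload does to these transcripts, and what each inhibitor does under overload.

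Mitochondrial ribosomes translate the messages of the mitochondrial genome, which code for core subunits of the respiratory chain and the ATP synthase. Their RNAs come from the mitochondrial genome, but all of their proteins are coded in the nucleus, made on cytosolic ribosomes and imported. The small subunit binds and decodes the messenger RNA, and the large subunit joins the amino acids. Heart muscle is rich in mitochondria. Of the 77 genes, 50 code for proteins placed in the large subunit and 26 for proteins placed in the small subunit. Mrps18a and Mrps30 belong to the large subunit despite their names. Mrps36 belongs to neither, since its product is now known as a subunit of the 2-oxoglutarate dehydrogenase complex. A counterpart in the bacterial ribosome is known for 47 of the proteins, and 30 have none.

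The libraries held 22.7 to 41.0 M expected counts. Rn45s, the precursor of the cytosolic ribosomal RNA, made up 0.416% of the counts in library 4 and 0.326% in library 1 of the PDE9A inhibitor group, and 0.192 to 0.278% elsewhere. Of 12 cardiomyocyte markers, 5 fell in TAC against sham, and their summed level was 128595 to 185399 counts per M (CPM) in TAC libraries and 185713 to 219908 CPM in sham libraries. Of 9 fibroblast markers, 7 rose, with sums of 4123 to 6246 CPM in TAC libraries and 2508 to 3133 CPM in sham libraries. All 7 markers of activated fibroblasts rose, with sums of 723 to 4655 CPM in TAC libraries and 117 to 192 CPM in sham libraries. The 5 adipocyte markers summed to at most 2.25 CPM in any TAC or sham library. None of 6 endothelial markers passed the test or had an unadjusted p under 0.05, and none of 5 erythroid markers passed it, although 4 of these had an unadjusted p under 0.05 with edgeR. Of 5 leukocyte markers tested, 2 rose (the B cell genes Cd79a and Cd79b), and the sums over the 6 leukocyte markers in the table were 97.6 to 115 CPM in TAC libraries and 75.0 to 94.2 CPM in sham libraries. Of 6 smooth muscle and pericyte markers 1 rose, Tagln, with sums of 479 to 610 CPM in TAC libraries and 589 to 628 CPM in sham libraries. In bulk tissue, fewer cells of a type and less RNA per cell cannot be told apart.

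The transcripts of the mitochondrial ribosome were lower under pressure overload. In TAC against sham, 28 of the 77 genes fell and none rose (edgeR's quasi-likelihood test, adjusted p under 0.05 by Benjamini and Hochberg over 14135 genes). Of all genes tested, 13.0% fell and 12.2% rose in this comparison. The median log2 fold change of the 77 was -0.25, against -0.001 for all genes tested, and 68 of the 77 estimates lay below 0. Values of the 5 TAC libraries lay wholly below those of the 5 sham libraries for 21 of the 77, against 8.0% of all genes tested. The estimates ran between -0.60 for Mrpl14 and 0.25 for Mrps10. The part of the cardiomyocyte and fibroblast markers in the lower levels was not tested. The count of the 77 that fell was 15, 17 and 18 without sham library 1, 3 and 4 in turn. It was 13 without TAC library 3 and 11 without TAC library 4. Over all genes tested, 3558 were called in either direction with every library. In the leave-out fits, in the same order, 2440, 2754, 2396, 2019 and 1781 were called. Calls stayed whichever single library was left out for Mrpl14, Mrpl23, Mrpl35, Mrpl36, Mrpl42, Mrpl47, Mrps5, Mrps11, Mrps28, Mrps30 and Mrps31.

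**Figure D1:**
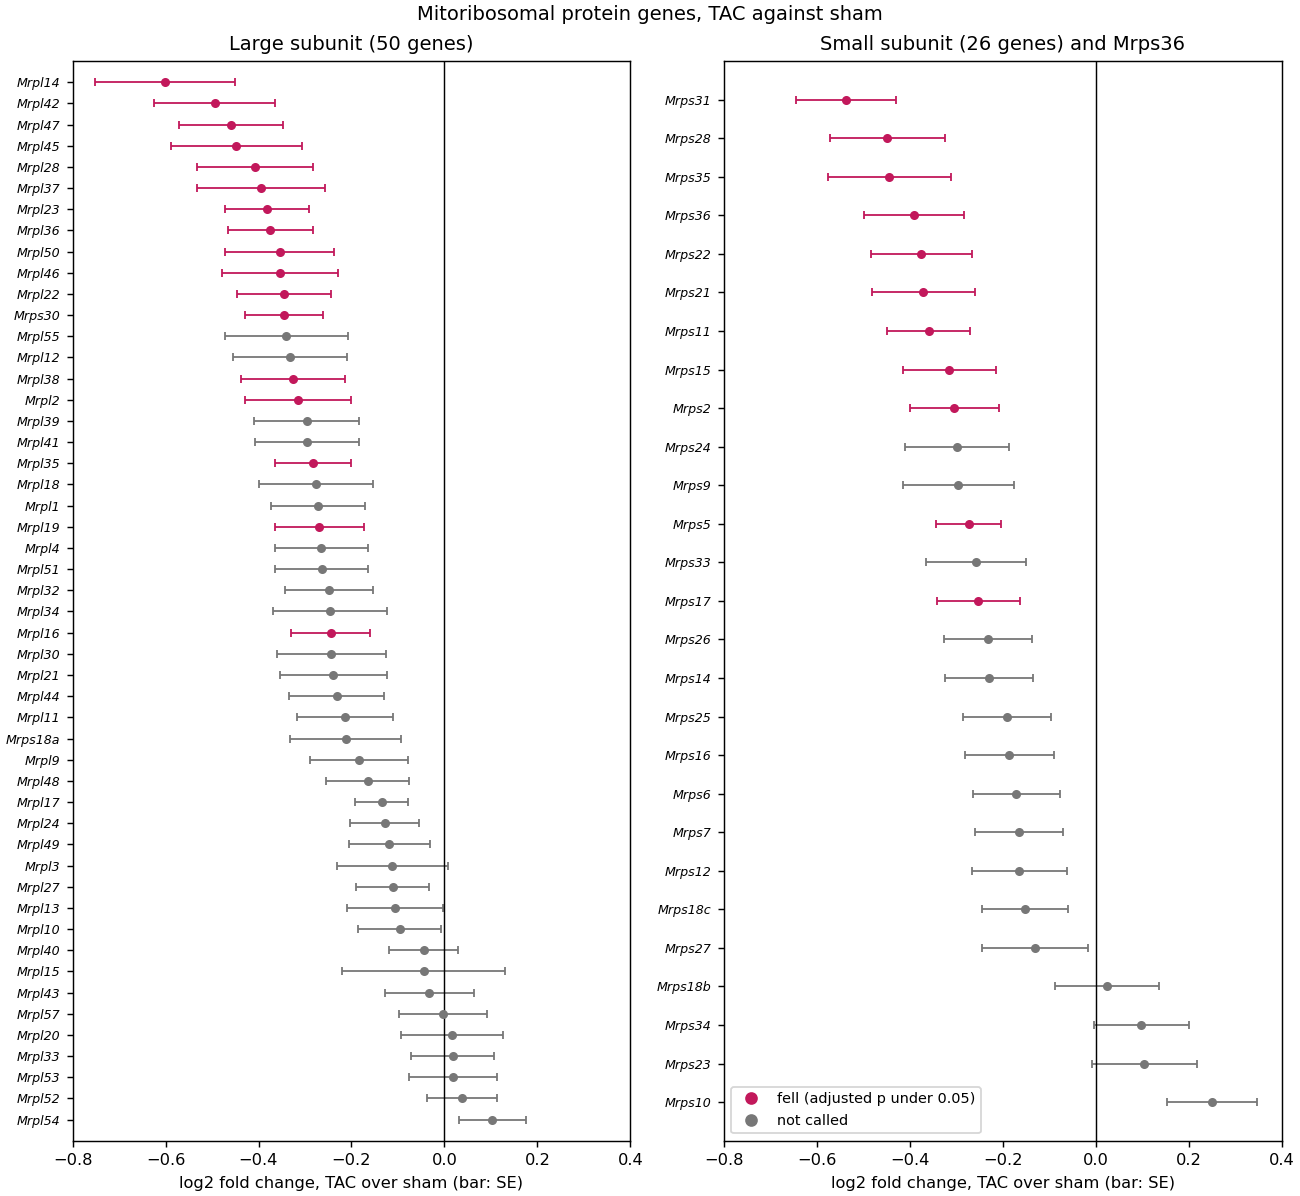
Log2 fold change of each of the 77 genes in TAC over sham (horizontal axis, bars are standard errors), the large subunit on the left and the small subunit with Mrps36 on the right; coloured points fell, grey points were not called. Most points lie left of 0, from -0.60 for Mrpl14 to 0.25 for Mrps10.

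Summed over the 77 genes, the level was 3344, 3471, 3152, 2990 and 3654 CPM in the TAC libraries and 4158, 3762, 4104, 4055 and 3522 CPM in the sham libraries. The means were 3322 ± 261 CPM in TAC and 3920 ± 270 CPM in sham (SD, n = 5 each), a difference of -15.3% of the sham mean. The groups overlapped through 1 pair, since TAC library 5 lay above sham library 5. Of the large subunit's genes 17 of 50 fell, with a median of -0.25, and of the small subunit's genes 10 of 26 fell, with a median of -0.24. Genes with a bacterial counterpart fell in 17 of 47 cases and those without in 11 of 30, with medians of -0.25 and -0.26.

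**Figure D2:**
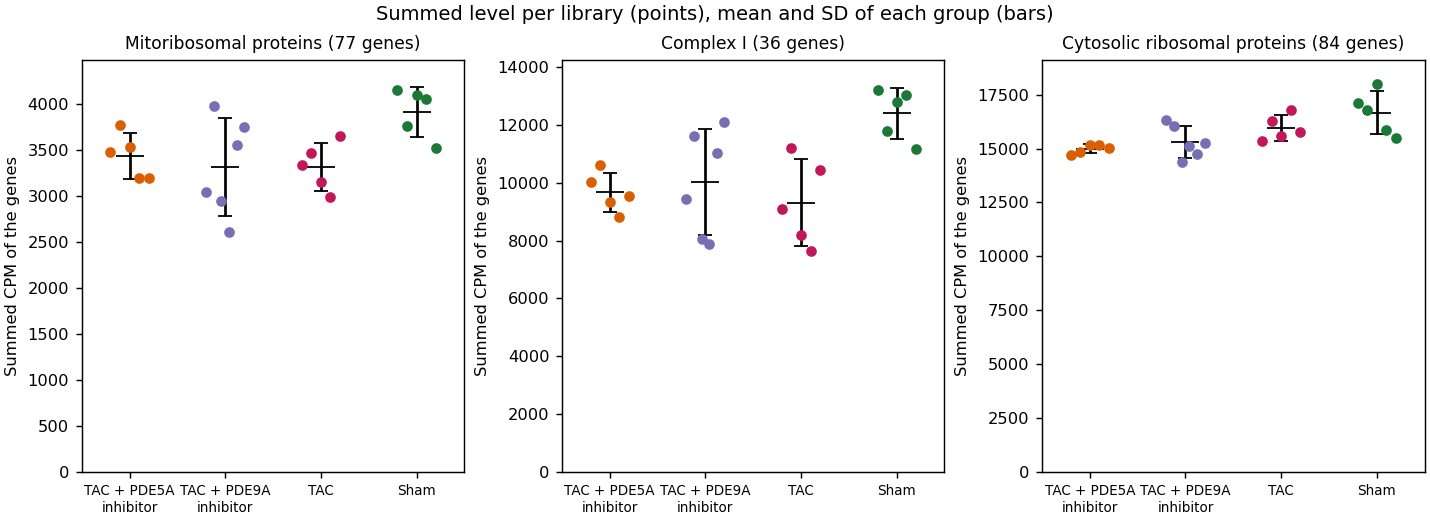
Summed CPM per library (points) for the 77 mitochondrial ribosomal protein genes, 36 complex I genes and 84 cytosolic ribosomal protein genes, with mean and SD of each group (bars). For the mitochondrial ribosome the TAC libraries sit between 2990 and 3654 CPM and the sham libraries between 3522 and 4158 CPM.

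Among small subunit genes, Mrps31 had the lowest p. It codes for a protein with no bacterial counterpart and spans chr8:22411361-22429665 (mm10, plus strand). Its level was 31.6, 35.6, 28.7, 28.7 and 38.7 CPM in TAC libraries, against 52.7, 44.4, 50.9, 46.8 and 41.9 CPM in sham libraries. Every TAC library was below every sham library, and the gene fell by 0.54 on the log2 scale (SE 0.11, edgeR adjusted p = 0.00367). Mrps11, a protein of the platform of the small subunit, was measured at 13.0, 12.8, 14.0, 13.5 and 15.6 CPM in TAC and at 18.6, 16.4, 17.4, 18.0 and 17.7 CPM in sham. These groups did not overlap, and Mrps11 fell by 0.36 (SE 0.09, edgeR adjusted p = 0.00932). Mrps5, which lies on the path by which messenger RNA enters the ribosome, averaged 29.1 ± 2.20 CPM in TAC and 35.2 ± 2.51 CPM in sham (SD, n = 5 each). Its groups overlapped slightly, since 1 sham library had 31.3 CPM and 1 TAC library 31.4 CPM, and it fell by 0.27 (SE 0.07, edgeR adjusted p = 0.0101). Mrps22, in which human mutations cause a disease that includes cardiomyopathy, averaged 19.2 ± 1.11 CPM in TAC and 24.9 ± 2.59 CPM in sham (SD, n = 5 each). It fell by 0.38 (SE 0.11, edgeR adjusted p = 0.0182) with no overlap.

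In the large subunit the lowest estimate belonged to Mrpl14 (chr17:45686322-45698495, plus strand), whose bacterial counterpart sits at the face between the subunits. Its level was 22.5, 26.0, 21.2, 18.2 and 27.8 CPM in TAC and 39.1, 29.9, 40.0, 36.7 and 29.5 CPM in sham. The groups did not overlap, and Mrpl14 fell by 0.60 (SE 0.15, edgeR adjusted p = 0.00966). Mrpl42, a protein with no bacterial counterpart and one of the more abundant transcripts, had 145, 162, 126, 112 and 177 CPM in TAC and 206, 198, 212, 211 and 190 CPM in sham. All TAC values were below all sham values, with a fall of 0.49 (SE 0.13, edgeR adjusted p = 0.0121). Mrpl23 and Mrpl47 code for proteins around the exit of the tunnel through which the growing chain leaves. Mrpl23 (chr7:142532686-142540747, plus strand) was at 32.4, 40.1, 32.5, 32.1 and 37.1 CPM in TAC and at 46.2, 42.7, 46.8, 46.6 and 44.5 CPM in sham. The 5 sham values of Mrpl23 lay close together and above all TAC values, and it fell by 0.38 (SE 0.09, edgeR adjusted p = 0.00753). Mrpl47 averaged 14.1 ± 1.55 CPM in TAC and 19.4 ± 2.66 CPM in sham (SD, n = 5 each), with no overlap and a fall of 0.46 (SE 0.11, edgeR adjusted p = 0.00863).

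The 2 other large subunit genes among the lowest p were Mrpl36, a very small protein with a bacterial counterpart, and Mrps30, which has none. Mrpl36 was at 23.4, 25.5, 23.8, 22.5 and 29.3 CPM in TAC and at 33.3, 32.4, 32.7, 31.5 and 31.5 CPM in sham. Its groups were apart, and it fell by 0.37 (SE 0.09, edgeR adjusted p = 0.00886). Mrps30 averaged 30.8 ± 2.44 CPM in TAC and 39.0 ± 2.97 CPM in sham (SD, n = 5 each), also without overlap, and fell by 0.35 (SE 0.08, edgeR adjusted p = 0.00863). Mrps36, which is no part of the ribosome, was measured at 40.6 ± 4.99 CPM in TAC and 53.2 ± 4.01 CPM in sham (SD, n = 5 each) and fell by 0.39 (SE 0.11, edgeR adjusted p = 0.0151). The others that fell were Mrpl2, Mrpl16, Mrpl19, Mrpl22, Mrpl28, Mrpl35, Mrpl37, Mrpl38, Mrpl45, Mrpl46, Mrpl50, Mrps2, Mrps15, Mrps17, Mrps21, Mrps28 and Mrps35.

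**Figure D3:**
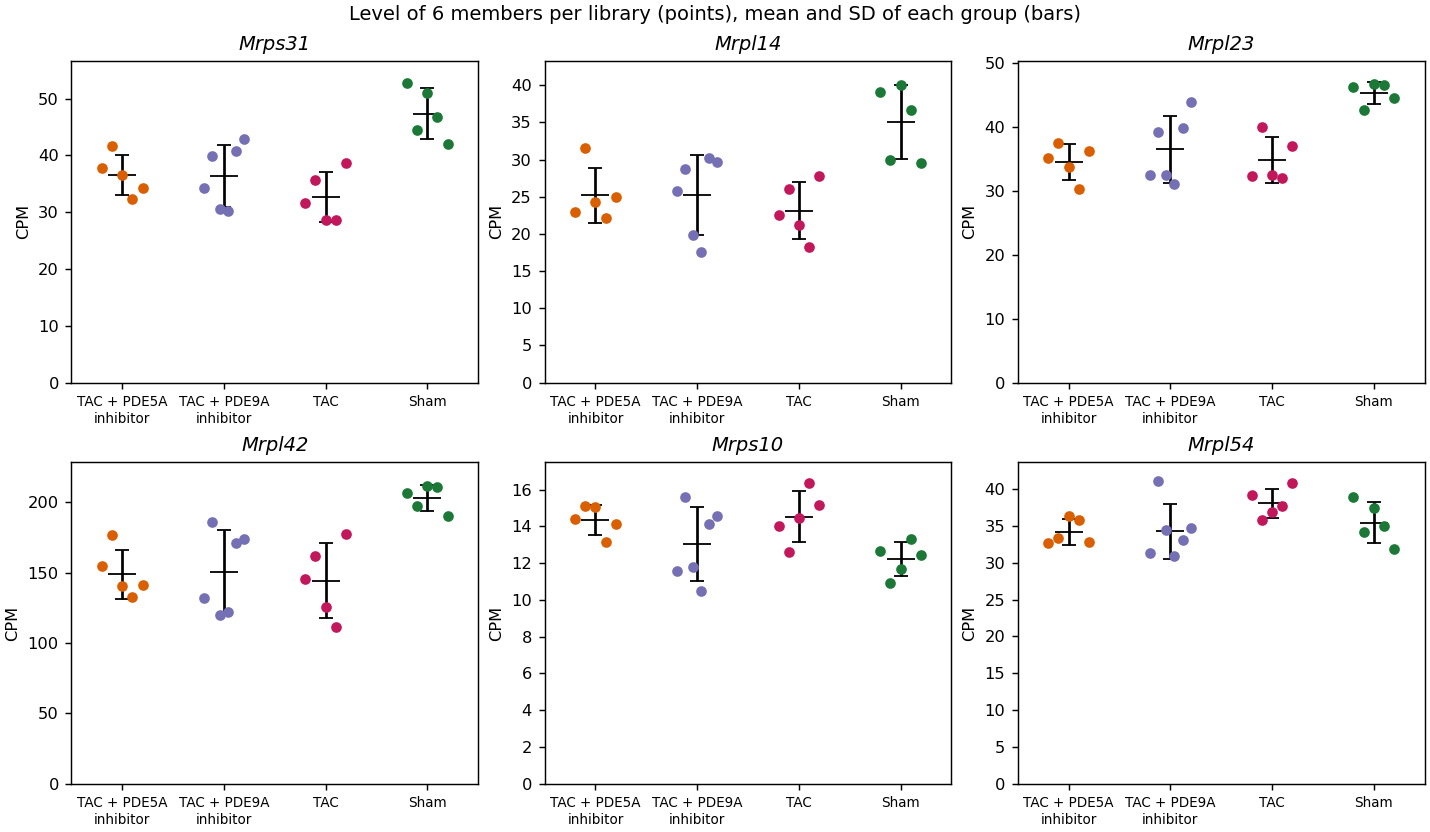
CPM of 6 of the genes per library (points), with mean and SD of each group (bars, n = 5, 6, 5 and 5 from left to right). Mrps31, Mrpl14, Mrpl23 and Mrpl42 are lower in every TAC library than in any sham library, while TAC and sham overlap for Mrps10 and Mrpl54.

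Among the 49 genes that were not called, several have well-known roles. Mrpl12, the stalk protein that recruits translation factors, had 75.7, 73.8, 72.2, 76.6 and 79.3 CPM in TAC and 95.4, 87.0, 103, 104 and 85.2 CPM in sham. These values did not overlap, yet the test gave -0.33 (SE 0.12) with an edgeR adjusted p of 0.0522. Mrpl44, in which human mutations cause an infantile cardiomyopathy, averaged 43.1 ± 3.94 CPM in TAC and 50.7 ± 4.30 CPM in sham, a log2 fold change of -0.23 (SE 0.10, edgeR adjusted p = 0.0982, n = 5 each). Mrpl3, in which human mutations also cause a cardiomyopathy, averaged 74.4 ± 8.87 CPM in TAC and 80.4 ± 9.04 CPM in sham, with overlapping values and a log2 fold change of -0.11 (SE 0.12, edgeR adjusted p = 0.512, n = 5 each). Mrps12 lies at the decoding centre and had an estimate of -0.16. Of the 3 related proteins named Mrps18, Mrps18a of the large subunit had -0.21, and Mrps18c and Mrps18b of the small subunit had -0.15 and 0.02.

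The other 9 estimates lay above 0, and none of these genes was called. The highest was that of Mrps10, whose bacterial counterpart lies in the head of the small subunit (chr17:47368887-47381417, plus strand). Its level was 14.0, 12.6, 14.4, 16.4 and 15.2 CPM in TAC and 12.7, 10.9, 11.7, 13.3 and 12.4 CPM in sham. The 2 ranges overlapped, since 1 TAC library at 12.6 CPM was below 2 sham libraries, and the log2 fold change was 0.25 (SE 0.10, edgeR adjusted p = 0.0606). The gene passed the threshold in the same direction under DESeq2 (adjusted p = 0.0434), in a fit of these 2 groups alone (edgeR adjusted p = 0.0345) and under 2 other settings of scaling and filter. Next came Mrps23, one of the more abundant transcripts, with 158 ± 10.1 CPM in TAC and 147 ± 13.6 CPM in sham, and Mrpl54, with 38.1 ± 1.95 CPM in TAC and 35.5 ± 2.79 CPM in sham (SD, n = 5 each). Both had estimates of 0.10, and their groups overlapped.

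The ratio of the large subunit's summed CPM to the small subunit's was 2.36 to 2.45 in TAC libraries and 2.46 to 2.51 in sham libraries. Without Mrpl42 and Mrps23, an abundant gene of each subunit chosen after the values were seen, it was 2.68 to 2.71 in TAC libraries and 2.62 to 2.70 in sham libraries.

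The ear tags of the mice fall into a series under 500 and a series of 500 and over, which the groups did not share equally. Within tags of 500 and over, with 3 TAC and 2 sham libraries, the median difference in log2 CPM of the 77 genes was -0.22. Within tags under 500, with 2 TAC and 3 sham libraries, it was also -0.22. Of the 77 genes, 65 were lower in TAC in the series of 500 and over and 72 in the series under 500. Over all genes tested the medians were 0.006 and -0.008. Both series are parts of the libraries that gave the calls, so they do not repeat the comparison independently. All PDE5A inhibitor libraries, and 5 of the 6 PDE9A inhibitor libraries, came from tags of 500 and over. With the series as a covariate 22 of the 77 genes fell in TAC against sham. Against sham, 1 fell in the PDE5A inhibitor group and none in the PDE9A inhibitor group. Over all genes tested, that fit called 3092, 441 and 108 in these comparisons, in either direction. The main fit called 3558, 2066 and 540.

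The promoters of these genes were examined for short sequence motifs. RefSeq (GRCm38.p6) gave a window of 250 bases before to 50 after the start for 68 of the 77. The windows were searched on both strands for the core of the NRF1 site (TGCGCANGC), of the ETS site used by GABP (CCGGAAG) and of the YY1 site (AAGATGGC), since these factors are known for nuclear genes of mitochondrial proteins. A choice of 6 is printed here, 5′ to 3′ on the strand of the gene, with matches to these 3 motifs in capitals. Mrps31, Mrpl23, Mrps11 and Mrpl36 fell in TAC, while Mrpl17 and Mrps18b were not called and hold more than 1 kind of match. The choice does not stand for all windows. Mrpl22, which fell, has NRF1 and ETS matches, and Mrpl12 and Mrps10, which were not called, have none of the 3 motifs.
Mrps31 (chr8:22411090-22411389, plus strand): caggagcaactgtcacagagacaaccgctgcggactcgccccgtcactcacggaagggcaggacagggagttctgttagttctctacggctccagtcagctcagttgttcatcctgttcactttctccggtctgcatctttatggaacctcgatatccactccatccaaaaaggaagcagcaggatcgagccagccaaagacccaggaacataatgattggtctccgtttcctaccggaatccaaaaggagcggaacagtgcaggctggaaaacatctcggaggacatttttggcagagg
Mrpl23 (chr7:142532782-142533081, plus strand): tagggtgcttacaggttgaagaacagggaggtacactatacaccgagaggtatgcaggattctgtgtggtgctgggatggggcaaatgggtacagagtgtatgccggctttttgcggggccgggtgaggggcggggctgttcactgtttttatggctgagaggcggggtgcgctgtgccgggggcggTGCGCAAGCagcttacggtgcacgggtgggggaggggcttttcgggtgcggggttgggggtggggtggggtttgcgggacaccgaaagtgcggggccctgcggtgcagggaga
Mrps11 (chr7:78782881-78783180, plus strand): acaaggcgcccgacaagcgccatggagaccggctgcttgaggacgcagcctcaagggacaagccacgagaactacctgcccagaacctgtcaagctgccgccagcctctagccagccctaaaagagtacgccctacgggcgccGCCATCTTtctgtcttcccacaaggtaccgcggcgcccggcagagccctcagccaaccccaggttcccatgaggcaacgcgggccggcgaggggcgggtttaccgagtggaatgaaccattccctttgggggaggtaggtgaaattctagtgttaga
Mrpl36 (chr13:73330759-73331058, plus strand): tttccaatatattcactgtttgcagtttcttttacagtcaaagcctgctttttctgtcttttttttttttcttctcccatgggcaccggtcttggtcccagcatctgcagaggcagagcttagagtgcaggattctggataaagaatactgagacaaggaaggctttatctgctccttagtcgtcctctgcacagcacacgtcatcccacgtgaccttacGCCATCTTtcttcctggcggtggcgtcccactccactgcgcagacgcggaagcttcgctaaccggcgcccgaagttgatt
Mrpl17 (chr7:105811038-105811337, minus strand): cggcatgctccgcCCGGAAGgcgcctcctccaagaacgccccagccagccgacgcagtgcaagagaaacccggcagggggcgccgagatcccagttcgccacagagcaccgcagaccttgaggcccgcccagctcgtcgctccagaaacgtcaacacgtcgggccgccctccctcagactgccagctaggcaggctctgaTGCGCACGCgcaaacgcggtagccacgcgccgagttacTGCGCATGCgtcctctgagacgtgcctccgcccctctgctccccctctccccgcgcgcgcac
Mrps18b (chr17:35916391-35916690, minus strand): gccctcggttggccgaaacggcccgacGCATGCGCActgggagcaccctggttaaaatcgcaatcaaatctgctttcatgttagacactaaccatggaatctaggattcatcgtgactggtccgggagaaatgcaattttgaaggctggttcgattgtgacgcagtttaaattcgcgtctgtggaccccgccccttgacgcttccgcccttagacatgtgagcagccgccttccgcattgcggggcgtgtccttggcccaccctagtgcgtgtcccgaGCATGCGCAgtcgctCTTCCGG

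Mrps31, the gene with the lowest p, has no match in its window. Mrpl23 has 1 NRF1 match at base 188 of the window, and Mrps11 and Mrpl36 have 1 YY1 match each, at bases 144 and 221. Mrpl17 has NRF1 matches at bases 201 and 239 and an ETS match at base 14. Mrps18b has NRF1 matches at bases 28 and 279 and an ETS match at base 294. Mrpl17 was at 35.0, 34.7, 33.7, 36.1 and 36.7 CPM in TAC and at 39.3, 37.2, 38.9, 39.8 and 38.5 CPM in sham, a small difference without overlap (log2 fold change -0.14, SE 0.06, edgeR adjusted p = 0.0792).

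At least 1 of the 3 motifs was found in 39 of the 68 windows, which is 57.4%, against 26.7% of the windows of all genes tested. NRF1 matches stood in 17.6% of the windows, against 8.30% over all genes tested, ETS matches in 35.3% against 17.0%, and YY1 matches in 17.6% against 4.47%. The SP1 core (GGGCGG) was found in 50.0%, against 63.2% of all genes tested. The TATA motif (TATAAA) was found in 4 windows and the ERR motif (TCAAGGTCA) in none. The SP1, TATA and ERR motifs are not in capitals. An ETS match was present in 3 of 24 windows of genes that fell (Mrpl22, Mrps21 and Mrps22) and in 21 of 44 windows of genes not called. For NRF1 the counts were 3 of 24 and 9 of 44, and for YY1 5 of 24 and 7 of 44. These shares are descriptions, and a match is not a site shown to be bound.

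Many of these genes start near a coding gene on the opposite strand, by the starts of GENCODE. For 33 of the 77, or 42.9%, a coding gene on the opposite strand starts within 1000 bases of their own start, against 15.2% of 12900 coding genes tested. Mrps11 and Mrpl46 are such a pair with each other, 1 of the small and 1 of the large subunit. Mrpl46 was at 27.4, 27.6, 27.9, 25.2 and 31.2 CPM in TAC and at 37.9, 34.9, 37.0, 35.8 and 32.5 CPM in sham and fell by 0.35 (SE 0.12, edgeR adjusted p = 0.0428). The YY1 match printed for Mrps11 lies outside the 300 bases of the Mrpl46 window. Among the 29 neighbours that were tested, 9 fell and 2 rose, against 13.0% and 12.2% of all genes tested. The 9 include Mrps11 and Mrpl46, each counted as the neighbour of the other. Mrpl36 is paired with Ndufs6 and Mrpl47 with Ndufb5, both subunits of complex I. The pairing of Mrpl36 rests on its GENCODE start, chr13:73328513. Its window printed above follows a RefSeq start further downstream (chr13:73330759-73331058), so the window and the pairing do not describe the same promoter. Ndufs6 fell by 0.52 (SE 0.15, edgeR adjusted p = 0.0167) and Ndufb5 by 0.33 (SE 0.12, edgeR adjusted p = 0.0409). Tmem63b, opposite Mrpl14, fell by 0.58 (SE 0.12, edgeR adjusted p = 0.00402). Of the 9 called members with a tested neighbour, the neighbour fell too for 7, with Mrps11 and Mrpl46 each counted. Klc4, opposite Mrpl2, rose by 0.21 (SE 0.08, edgeR adjusted p = 0.0463) while Mrpl2 fell by 0.32. Mrps18b and Mrpl54 were not called, and the differences from their neighbours were not tested. Ppp1r10, opposite Mrps18b, fell by 0.63 (SE 0.15, edgeR adjusted p = 0.00891), and Apba3, opposite Mrpl54, fell by 0.29 (SE 0.09, edgeR adjusted p = 0.0243). The transcribed spans of Mrpl14, Mrpl36, Mrpl46, Mrpl47 and Mrps11 overlap those of the genes opposite, and it is not given whether the authors counted by strand, so reads of such partners cannot be told apart with certainty.

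Some genes of the machinery around the mitochondrial ribosome also fell. Beside the counts of the lists that follow, 13.0% of all genes tested fell in TAC against sham and 12.2% rose. Of 15 mitochondrial translation factors, 4 fell and none rose in TAC against sham, with a median of -0.24. Gfm1, the elongation factor that moves the ribosome along the message, averaged 184 ± 24.1 CPM in TAC and 238 ± 18.2 CPM in sham (SD, n = 5 each) and fell by 0.37 (edgeR adjusted p = 0.0284). Lrpprc, which stabilises mitochondrial messenger RNAs, fell by 0.39 (edgeR adjusted p = 0.0303), and Mrrf, the recycling factor, by 0.26 (edgeR adjusted p = 0.0151). Of 6 ribosomal proteins that carry other symbols, Dap3 of the small subunit fell, by 0.35 (edgeR adjusted p = 0.0182). Of 26 genes for assembly of the ribosome and modification of its RNA, 9 fell and 1 rose, with a median of -0.25. Mrm1, a methyltransferase of the large ribosomal RNA, fell by 0.47 (edgeR adjusted p = 0.00367), and Eral1, which binds the small ribosomal RNA, by 0.42 (edgeR adjusted p = 0.0128). Trub2, a pseudouridine synthase, was the exception and rose by 0.40 (edgeR adjusted p = 0.0105). Of 20 mitochondrial aminoacyl-tRNA synthetases and related enzymes, 7 fell and none rose, with a median of -0.27.

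Regulators of mitochondrial gene expression were lower in part. Of 10 such genes, 4 fell and none rose, with a median of -0.10. Of the estimates 3 lay above 0, the highest at 0.86. Ppargc1a, a coactivator of mitochondrial biogenesis, averaged 92.8 ± 18.5 CPM in TAC and 142 ± 14.5 CPM in sham (SD, n = 5 each) and fell by 0.61 (edgeR adjusted p = 0.0131). Its relative Ppargc1b fell by 0.43 (edgeR adjusted p = 0.00556), and Esrra, a nuclear receptor it acts through, by 0.37 (edgeR adjusted p = 0.0143). Of 12 genes for transcription and replication of mitochondrial DNA, 4 fell and none rose. Of 16 genes for import and proteolysis, 4 fell, among them the chaperonin genes Hspd1, by 0.57 (edgeR adjusted p = 0.00877), and Hspe1, by 0.50 (edgeR adjusted p = 0.009).

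Transcripts of nuclear genes of the respiratory complexes and the ATP synthase were also lower in TAC against sham. Of 36 nuclear genes of complex I, 31 fell, with a median of -0.42, and of 41 tested genes of complexes III to V, 35 fell, with a median of -0.41. Of 82 cytosolic ribosomal protein genes tested, 7 fell and 2 rose in TAC against sham, with a median of -0.05. Against sham, 23 of the 82 fell in the PDE5A inhibitor group and 8 in the PDE9A inhibitor group, and none rose. The medians of the 82 were -0.14 and -0.12 there. Of all genes tested, 7.8% and 1.65% fell in these inhibitor comparisons. The family of cytosolic ribosomal protein genes has many near-identical copies in the genome, so their counts are uncertain. No test was made of the differences between these lists.

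**Figure D4:**
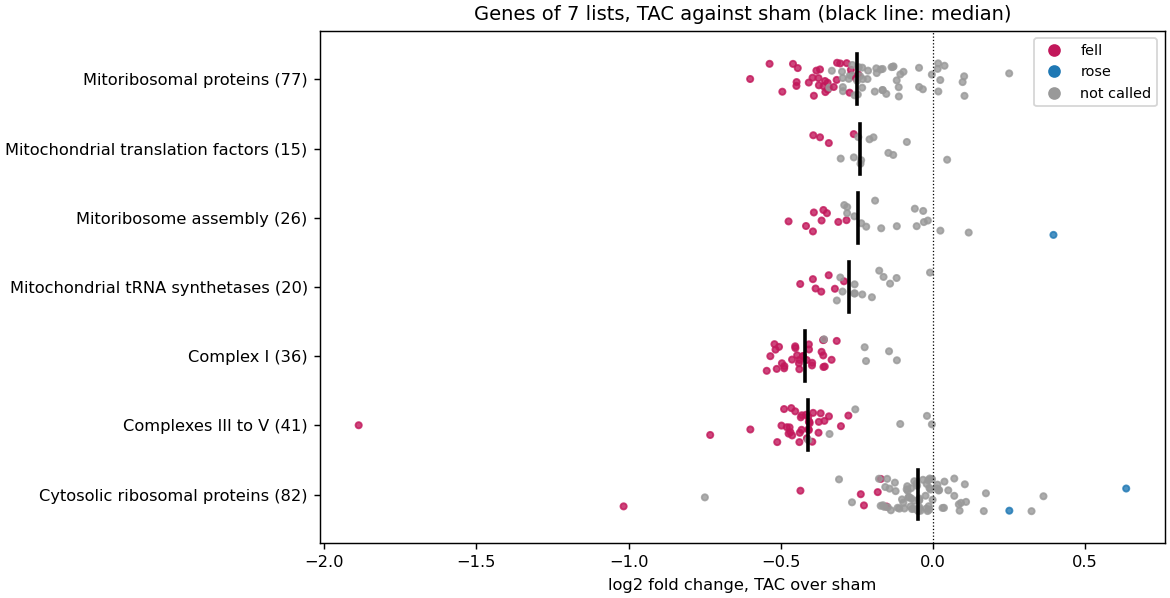
Log2 fold change in TAC over sham (horizontal axis) of every tested gene of 7 lists, with the number of genes in brackets and the median as a black line; colours mark genes that fell, rose or were not called. The mitochondrial ribosomal proteins have a median of -0.25, complex I of -0.42 and cytosolic ribosomal proteins of -0.05.

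None of these genes was called in either inhibitor group against TAC. In TAC with the PDE5A inhibitor against TAC, none of the 77 was called by edgeR, against 0.0141% of all genes tested, and 2 had an unadjusted p under 0.05. DESeq2 called none of the 77 either, against 0.0566% of the genes with an adjusted p. The median log2 fold change was 0.05, and 60 of the 77 estimates lay above 0. In TAC with the PDE9A inhibitor against TAC, none was called by edgeR, against 0.00707% of all genes tested, and 1 had an unadjusted p under 0.05. With DESeq2 none was called, against 0.314% of the genes with an adjusted p. The median was -0.01, with 36 estimates above 0. Standard errors of single genes had a median of 0.10 in both comparisons. Both comparisons use the same 5 TAC libraries.

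The 3 genes with the lowest p under the PDE5A inhibitor were Mrpl17, Mrpl54 and Mrps2. Mrpl17 was at 37.0, 40.6, 41.8, 39.6 and 35.7 CPM with the PDE5A inhibitor and at 35.0, 34.7, 33.7, 36.1 and 36.7 CPM in TAC, a log2 fold change of 0.14 (SE 0.06, edgeR adjusted p = 0.947). Mrpl54 was at 32.6, 33.3, 36.4, 35.9 and 32.8 CPM with the PDE5A inhibitor and at 39.2, 35.9, 36.9, 37.7 and 40.9 CPM in TAC, a log2 fold change of -0.16 (SE 0.07, edgeR adjusted p = 0.947). Under the PDE9A inhibitor Mrpl54 was at 31.4, 41.1, 34.5, 30.9, 33.0 and 34.7 CPM, with -0.15 (SE 0.07, edgeR adjusted p = 0.313) against TAC. The next 2 under the PDE9A inhibitor were Mrpl52 and Mrps23, the second with 138 ± 26.7 CPM (n = 6) against 158 ± 10.1 CPM in TAC (SD, n = 5) and a log2 fold change of -0.19 (SE 0.11, edgeR adjusted p = 0.418). Mrps31 was at 37.7, 41.6, 36.6, 32.3 and 34.3 CPM with the PDE5A inhibitor and at 34.2, 39.9, 30.6, 30.2, 40.7 and 42.9 CPM with the PDE9A inhibitor. Its log2 fold change against TAC was 0.16 for both (SE 0.11 and 0.10, edgeR adjusted p = 0.962 and 0.491).

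The 2 inhibitors were not told apart in these genes. In the PDE5A inhibitor group against the PDE9A inhibitor group none of the 77 was called by edgeR, against 0.00707% of all genes tested, 2 had an unadjusted p under 0.05, and the median was 0.06. None was called by DESeq2, against 0.248% of the genes with an adjusted p. Mrpl17 had the lowest p, with 37.0, 40.6, 41.8, 39.6 and 35.7 CPM under the PDE5A inhibitor and 32.6, 35.8, 33.5, 31.6, 37.1 and 38.2 CPM under the PDE9A inhibitor. The values overlapped, with a log2 fold change of 0.16 (SE 0.05, edgeR adjusted p = 0.354). Mrps18b followed, with 29.7 ± 2.52 CPM (n = 5) under the PDE5A inhibitor, 25.5 ± 4.78 CPM (n = 6) under the PDE9A inhibitor (SD) and a log2 fold change of 0.22 (SE 0.11, edgeR adjusted p = 0.478). Doses are not given, so the drugs cannot be matched by dose, and a p above the threshold does not show that they act alike.

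Some of the genes also fell against sham in the overloaded hearts given an inhibitor. In the PDE5A inhibitor group against sham, 14 of the 77 fell and none rose, against 7.8% and 6.81% of all genes tested, with a median of -0.19. The values did not overlap and were lower for 13 of the 77, against 8.75% of all genes tested. The count that fell was 1 without sham library 1 or without PDE5A inhibitor library 4. It was between 2 and 9 without sham library 2, 3 or 4 or PDE5A inhibitor library 1, 3 or 5. Over all genes tested, 2066 were called in either direction with every library. Without sham library 1 it was 870, without PDE5A inhibitor library 4 it was 580, and in the other fits named 950 to 1958. Of the markers, 4 of 12 for cardiomyocytes fell (sums of 142362 to 181929 CPM with the PDE5A inhibitor and 185713 to 219908 CPM in sham), 4 of 9 for fibroblasts rose (3236 to 5625 CPM and 2508 to 3133 CPM), all 7 for activated fibroblasts rose (498 to 2888 CPM and 117 to 192 CPM) and 2 of 5 tested for leukocytes rose. Their part in the lower levels was not tested. The 8 with the lowest p were Mrpl23, Mrpl35, Mrps21, Mrpl47, Mrps36, Mrps31, Mrpl42 and Mrps22. Mrpl23 was at 35.1, 37.5, 33.7, 30.2 and 36.2 CPM with the PDE5A inhibitor, all below its sham values given above (log2 fold change -0.39, SE 0.09, edgeR adjusted p = 0.0115). Mrps21 averaged 48.1 ± 1.43 CPM with the PDE5A inhibitor and 64.1 ± 4.88 CPM in sham (SD, n = 5 each) and fell by 0.41 (SE 0.11, edgeR adjusted p = 0.0210).

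In the PDE9A inhibitor group against sham, 7 of the 77 fell and none rose, against 1.65% and 2.17% of all genes tested, with a median of -0.24 and 75 of 77 estimates below 0. The values were lower without overlap for 3 of the 77, against 1.87% of all genes tested. The 7 were Mrps5, Mrpl35, Mrpl47, Mrpl36, Mrps31, Mrpl23 and Mrps17. Mrps5 was at 27.3, 33.2, 26.8, 26.6, 30.5 and 29.6 CPM with the PDE9A inhibitor and fell by 0.28 against sham (SE 0.07, edgeR adjusted p = 0.0301). Mrpl36 was at 22.1, 31.3, 23.3, 22.5, 28.2 and 26.8 CPM, all below its 5 sham values, and fell by 0.33 (SE 0.09, edgeR adjusted p = 0.0444). None of 12 cardiomyocyte markers was called here, although 3 had an unadjusted p under 0.05 with edgeR. Of the other markers, 2 of 9 for fibroblasts rose (sums of 3035 to 7400 CPM with the PDE9A inhibitor and 2508 to 3133 CPM in sham), 4 of 7 for activated fibroblasts rose (169 to 2328 CPM and 117 to 192 CPM) and 1 of 6 for endothelial cells fell (738 to 923 CPM and 831 to 976 CPM). Their part in these calls was not tested. The count of the 77 that fell changed with the libraries in the fit. None of the 77 was called without PDE9A inhibitor library 1, 3 or 4, or without sham library 1, 3 or 4. Without sham library 2, 1 was called, whereas 28, 13 and 30 fell without PDE9A inhibitor library 2, 5 or 6. Calls over all genes tested, in either direction, moved too, from 540 with every library. They were 162, 29 and 41 without PDE9A inhibitor library 1, 3 or 4, and 1340, 893 and 1814 without library 2, 5 or 6. Without sham library 1, 2, 3 or 4 they were 73, 44, 21 and 88. Without the 2 libraries of highest Rn45s share, PDE9A inhibitor libraries 1 and 4, the median was -0.14 and none of the 77 was called. That fit called 18 of all genes tested. All 3 comparisons against sham use the same 5 sham libraries, so their counts are not independent.

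The PDE9A inhibitor group held the most varied libraries. Its summed level was 3048, 3986, 2946, 2608, 3561 and 3758 CPM, and that of the PDE5A inhibitor group was 3477, 3780, 3534, 3198 and 3203 CPM. The means were 3438 ± 245 CPM (n = 5) with the PDE5A inhibitor, 3318 ± 532 CPM (n = 6) with the PDE9A inhibitor and 3322 ± 261 CPM (n = 5) in TAC, against 3920 ± 270 CPM (SD, n = 5) in sham. The median SD of a gene's log2 CPM over the 77 was 0.117, 0.241 and 0.138 in the PDE5A inhibitor, PDE9A inhibitor and TAC groups, against 0.119 in sham. Over all genes tested the medians were 0.155, 0.214 and 0.177 in these groups, against 0.139 in sham. In PDE9A inhibitor library 4 all 77 genes were below the sham mean and 75 were below the lowest sham library, whereas in PDE9A inhibitor library 2 the counts were 35 and 12. The fibroblast markers summed to 4330, 3674, 6859, 7400, 3613 and 3035 CPM in PDE9A inhibitor libraries 1 to 6, so that libraries 3 and 4 were lowest in the ribosomal genes and highest in these markers. Cardiomyocyte markers summed to 188707, 184335, 172566, 154412, 203730 and 218047 CPM in the same libraries. The part of these markers in the spread was not tested.

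**Figure D5:**
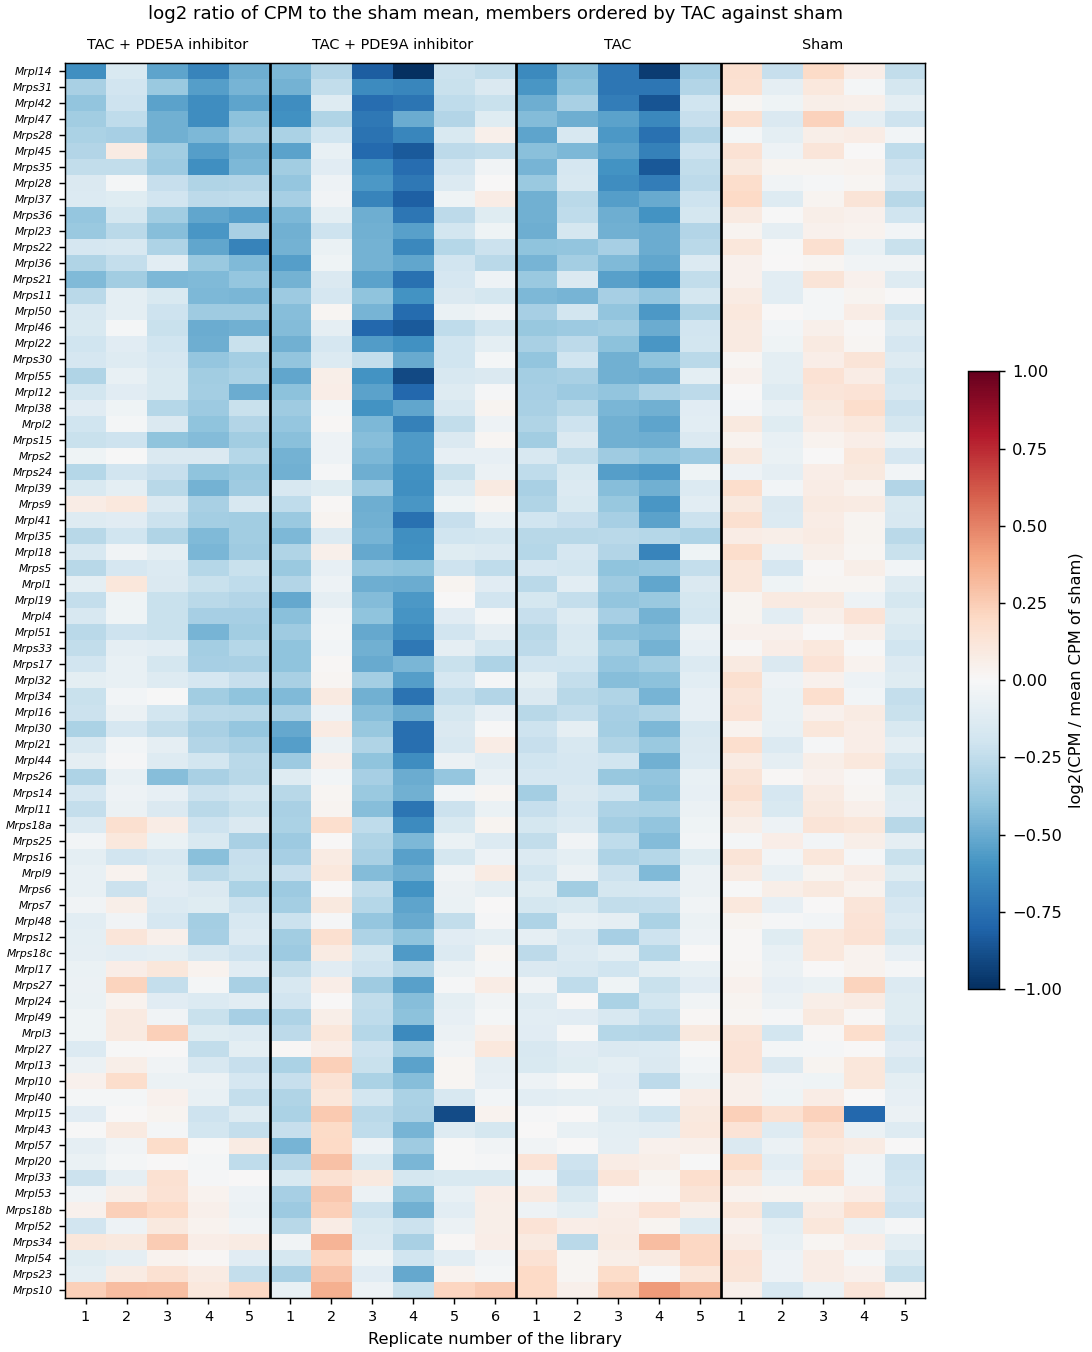
Log2 ratio of CPM to the sham mean for the 77 genes (rows, ordered by their log2 fold change in TAC against sham) in the 21 libraries (columns, by group and replicate number), blue below and red above the sham mean. PDE9A inhibitor library 4 is below the sham mean in all 77 rows, and Mrps10 in the bottom row is above it in every TAC and PDE5A inhibitor library.

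Across the 21 libraries most of the genes moved together. Mrpl55 followed the mean of the other members most closely, with a Pearson correlation of 0.98 in log2 CPM. The lowest correlations were those of Mrps10 (0.22), Mrpl33 (0.25), Mrpl15 (0.31) and Mrps34 (0.37). Of all other genes tested, those most like the mean of the 77 were Fdx1 (0.980), Timm23 (0.979), Phb (0.976), Ndufaf1 (0.974) and Mtch2 (0.973), which code for mitochondrial proteins. These correlations describe 21 libraries that fall into 4 groups and share their scaling. Mrpl33 averaged 49.7 ± 4.67, 48.6 ± 5.06 and 51.2 ± 5.31 CPM in the PDE5A inhibitor, PDE9A inhibitor and TAC groups, against 50.6 ± 5.11 CPM in sham (SD). Mrps34 averaged 39.1 ± 2.10, 35.9 ± 5.63 and 38.3 ± 5.49 CPM in the PDE5A inhibitor, PDE9A inhibitor and TAC groups, against 35.8 ± 1.98 CPM in sham (SD). The Mrps34 gene overlaps Nme3 on the same strand and Mapk8ip3 on the other. Mrpl15 was low in 2 single libraries, at 31.0 CPM in PDE9A inhibitor library 5 and 33.6 CPM in sham library 4, while the other 19 libraries lay between 46.2 and 69.3 CPM.

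The levels of these transcripts differed widely per unit of length. In CPM per kb of exon, the highest in sham were Mrps23 with 94.1 ± 8.71, Mrps21 with 86.7 ± 6.61, Mrpl28 with 78.1 ± 6.62 and Mrpl34 with 77.3 ± 8.58 (SD, n = 5). The lowest in sham were Mrps17 with 4.94 ± 0.440, Mrpl32 with 4.64 ± 0.351, Mrpl47 with 4.40 ± 0.602 and Mrps10 with 1.51 ± 0.113 CPM per kb. Neighbours at both ends, such as Mrpl28 and Mrpl34 or Mrpl32 and Mrpl47, differed by less than their SD, but Mrps10 was apart from the rest. Per kb of exon in TAC, the same 4 high genes had 101, 67.1, 58.9 and 65.2 CPM. The order depends on the length used, since of the 4 highest only Mrps23 remained among the 4 highest when coding length was used. The genes lie on 17 chromosomes, with 10 of them on chromosome 11.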

How the data were processed

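Total RNA of left ventricular myocardium went into the libraries, with 500 ng of RNA per stranded library, per the labels' protocols. The sample titles call the libraries mRNA-seq. The authors deposited RSEM expected counts per gene symbol, unscaled, in 1 table with a column per library. The submitters' processing notes name HISAT2 2.0.5, RSEM 1.3.0, CASAVA 1.8.4, DESeq2 1.18.1 and mm10 without their roles. No source used here states whether reads were counted by strand. The 77 symbols were all matched to GENCODE M21 (GRCm38), which gave coordinates and lengths.

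Expected counts were rounded, filtered with filterByExpr by group (14135 genes left), scaled by TMM and fitted in 1 model of all 21 libraries with edgeR 4.0.16 (robust quasi-likelihood, R 4.3.3). The p of each gene was adjusted over all genes tested by the method of Benjamini and Hochberg, and an adjusted p under 0.05 was called; only called genes are said to have risen or fallen. CPM values use the TMM scaling. Changes without a unit are log2 fold changes, and SE is their standard error. The libraries come from separate animals, so p-values measure the spread between animals.

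The members, the lists and the tests were chosen with earlier results of these data known. Genes named with values are 10 chosen for their role, the 8 called members with the lowest p and the 4 with the largest change in TAC against sham, up to 8 called members (or the 3 with the lowest p) in each other comparison, the 4 highest and 4 lowest by level per kb, and up to 3 called genes of other lists; those whose correlation, promoter or neighbour is described were chosen after their values were seen. Alternatives were DESeq2 1.42.0, other scalings and filters, fits of 2 groups, a replicate block, the ear tag series and leaving out each library.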

Additional observations from a re-analysis of the deposited data

Results flagged for a closer look

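The values of 30 genes named by rule and the summed level, each in 1 group, gave 124 sets. Of these sets, 3 held a library far from the others of its group. Chance flags about 1 in 20 such sets. Other genes named above, such as Mrpl15 with its 2 low libraries, were not among the 30. Mrpl54 had its highest value in PDE9A inhibitor library 2, 41.1 CPM, with the next at 34.7 CPM. Mrpl44 had its lowest value among TAC libraries in library 4, 36.3 CPM, with the next at 44.0 CPM. Mrpl35 had its lowest value among sham libraries in library 5, 37.5 CPM, with the next at 46.1 CPM.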

How the results depend on the processing

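The fall in TAC against sham kept its direction under every alternative run: 20 to 39 of the 77 genes fell under other tests, scalings, filters and covariates, and medians ran between -0.25 and -0.16. The count of genes that rose was 1 with DESeq2, 1 with a filter of at least 1 CPM in 5 libraries and 1 in a fit of the 2 groups alone, each time Mrps10, and 2 with library totals in place of TMM (Mrps10 and Mrpl54). Leaving out 1 library gave 11 to 35 that fell, 0 to 1 that rose and medians of -0.29 to -0.20. Over all genes tested, the fits without 1 library called 1781 to 4440 in either direction, against 3558 in the main fit. The other tests, scalings, filters and covariates called 3092 to 4152. With library totals the median of all genes tested was 0.087, against -0.001 in the main fit. In the PDE5A inhibitor group against sham, 7 fell and 1 rose with library totals, 25 fell and 1 rose in a fit of the 2 groups alone, and 1 fell with the ear tag series as a covariate; leaving out 1 library gave 1 to 18, with medians of -0.23 to -0.15. In the PDE9A inhibitor group against sham, 20 fell with DESeq2, 3 with no filter on low counts, 0 in a fit of the 2 groups alone, 0 with the ear tag series and 0 without PDE9A inhibitor libraries 1 and 4, an alternative chosen after seeing the data; leaving out 1 library gave 0 to 30, with medians of -0.29 to -0.18. Against TAC and between the inhibitors the counts were 0 under all alternatives run, with medians on leaving out 1 library of 0.01 to 0.09 (PDE5A inhibitor against TAC), -0.06 to 0.05 (PDE9A inhibitor against TAC) and 0.01 to 0.11 (PDE5A against PDE9A inhibitor). Replicate numbers were not taken to pair the libraries, since no comparison had all its correlations over 0.1: they ran between -0.184 and 0.048 in TAC against sham, and over all comparisons between -0.225 and 0.564; with them as a replicate block, 38 genes fell in TAC against sham, 18 in the PDE5A inhibitor group and 40 in the PDE9A inhibitor group against sham. The estimate of Mrps18b in TAC against sham, never called, was -0.0049 with the ear tag series, -0.016 without sham library 2 and -0.023 without sham library 5, and leaving out 1 library gave -0.023 to 0.072. Of the 4 highest genes per kb of exon, 1 remained by coding length and 3 by longest transcript. Calls over all genes tested, in either direction, shifted too. For the PDE5A inhibitor against sham they were 2066 in the main fit, 2011 with library totals, 3440 with 2 groups and 441 with ear tags. For the PDE9A inhibitor against sham they were 540 in the main fit and 1550 with DESeq2. They were 329 with no filter, 17 with 2 groups, 108 with ear tags and 18 without libraries 1 and 4. The replicate block gave 3896 (TAC), 2575 (PDE5A) and 2241 (PDE9A) against sham. The causes of these shifts were not tested.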
